A study of Mus musculus with 44 samples.

Results

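The regions described here were the sites of m6A enrichment that the authors' peak caller listed in mouse liver after PCB126 and at which it listed no peak in the other 3 treatments. A peak counted as PCB126-only when its span overlapped, by 1 bp or more on the same chromosome and strand, no peak of the lists for vehicle control, Aroclor1260, or Aroclor1260 with PCB126 (the combination), all called against input RNA. Of the 2178 peaks in the PCB126 list, 759 met this rule. The 8 deposited lists held 17573 peaks in all. The regions were selected on these peak calls, so their absence from the other lists is a description and not a finding.

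All mice were male C57Bl/6J, an inbred laboratory strain, and all were on a high-fat diet (42% of kcal), so no group in the study was on a lean diet. Vehicle, Aroclor1260, PCB126 or the combination was given orally once, at week 2 of a 12-week study, and whole liver was taken. No dose is known here. Each treatment had 5 input libraries, 5 m6A immunoprecipitates and 1 pooled IgG immunoprecipitate, 44 libraries in all. Each peak list covered a whole treatment, with no value per animal. There was therefore no replicate error, no test between treatments was possible, and the read depth behind a peak is unknown. The text gives counts, and the Wilson 95% intervals beside some shares cover counting error over peaks or loci only.

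N6-methyladenosine (m6A) is a methyl mark placed on messenger RNA by a nuclear writer complex, mostly within a short consensus around the letters GGAC and often near stop codons. Reader proteins bind the mark and affect splicing, export, translation and decay of the transcript. PCB126 is a dioxin-like polychlorinated biphenyl that activates the aryl hydrocarbon receptor, a transcription factor whose DNA element has the core GCGTG. Aroclor1260 is an industrial blend of polychlorinated biphenyls with a high chlorine content. In the assay used, MeRIP, fragments bound by an antibody against m6A are sequenced, and a peak is a stretch where they exceed a reference, here input RNA or a control IgG immunoprecipitate.

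Sequence could be read for 10 of the 759 peaks, those with at least 20 exonic bases inside a RefSeq promoter window (GRCm38.p6, the assembly behind mm10, which the peak coordinates use). The letters GGAC occurred on the peak's strand in 4 of the 10. One site of each is shown because it places the consensus inside a PCB126-only peak. Capitals mark GGAC, and each line reads 5′ to 3′ on the peak's strand.
Arhgef3: tccctgtgaaGGACctcacgctgg
Gabpb2: atcctgagcgGGACtacttagcga
Rora: gcttctacctGGACatccagccct
Emilin1: gagGGACagacaggagc

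These stretches lay on the plus strand at chr14:27400359-27400382, chr3:95217923-95217946, chr9:69364400-69364423 and chr5:30913651-30913667. The Arhgef3 peak had a fold enrichment of 8.29 over input, the Gabpb2 peak 3.14, the Rora peak 1.86 and the Emilin1 peak 1.60. Arhgef3 encodes a guanine nucleotide exchange factor for small GTPases. Gabpb2 encodes a subunit of the GA-binding transcription factor, but the peak lay on the strand opposite to that gene in RefSeq, under another identifier of the files. Rora encodes a nuclear receptor of the circadian and lipid programmes, and Emilin1 an extracellular matrix glycoprotein. A GGAC is common. At the same place and length, 32.9% of all promoter windows held 1 for the 106 readable bases of Arhgef3, 28.4% for the 90 of Gabpb2, 42.8% for the 150 of Rora and 41.5% for the 151 of Emilin1. The readable stretches of the other 6 peaks, at Rnf43, Maip1, Mprip, Dcaf11, Mettl7a1 and a minus-strand peak at Gabpb2, did not contain these letters.

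The 759 peaks were 34.8% (interval 32.9 to 36.9) of the PCB126 list. By the same rule, 783 of the 2284 combination peaks (34.3%) were found in the combination list alone, 28 of 620 in the control list (4.52%), and 22 of 506 in the Aroclor1260 list (4.35%). The lists thus differed in length as well as in share, and the unknown depth of each cannot be told apart from the treatment. When every list was shortened to its 506 peaks with the smallest p-values, 216 of the 506 PCB126 peaks were PCB126-only. The same count was not made for the other treatments, so it gives no comparison between treatments at equal length. Set against 1 list at a time, 79.3% of the PCB126 list had no counterpart in control, 83.3% none in Aroclor1260 and 37.3% none in the combination. Called against IgG instead, 33.6% of PCB126 peaks were found in that list alone, 26.4% for the combination, 11.7% for Aroclor1260 and 9.18% for control.

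PCB126-only peaks were lower and narrower than the other 1419 peaks of their list. Their median fold enrichment over input was 2.03 (quartiles 1.61 to 2.71), against 2.82 (2.0 to 4.6) for the others. Their median exonic width was 150 bp, against 251 bp. A width at or under their own lower quartile, 101 bp, was found for 318 of them (41.9%) and for 238 of the others (16.8%). Tall peaks were nonetheless among them. A fold of 5 or more was reached by 41 (5.40%) and a fold of 10 or more by 10 (1.32%), against 22.2% and 7.68% of the other peaks. Among the 100 highest folds of the PCB126 list, 9 belonged to PCB126-only peaks, and the highest of all was 61.2, at Pde4b. The rule itself favours narrow peaks, which have fewer bases to overlap another peak, and may favour low ones. Because it also selects on presence in lists of different sizes, these medians describe the peaks and were not tested.

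**Figure D1:**
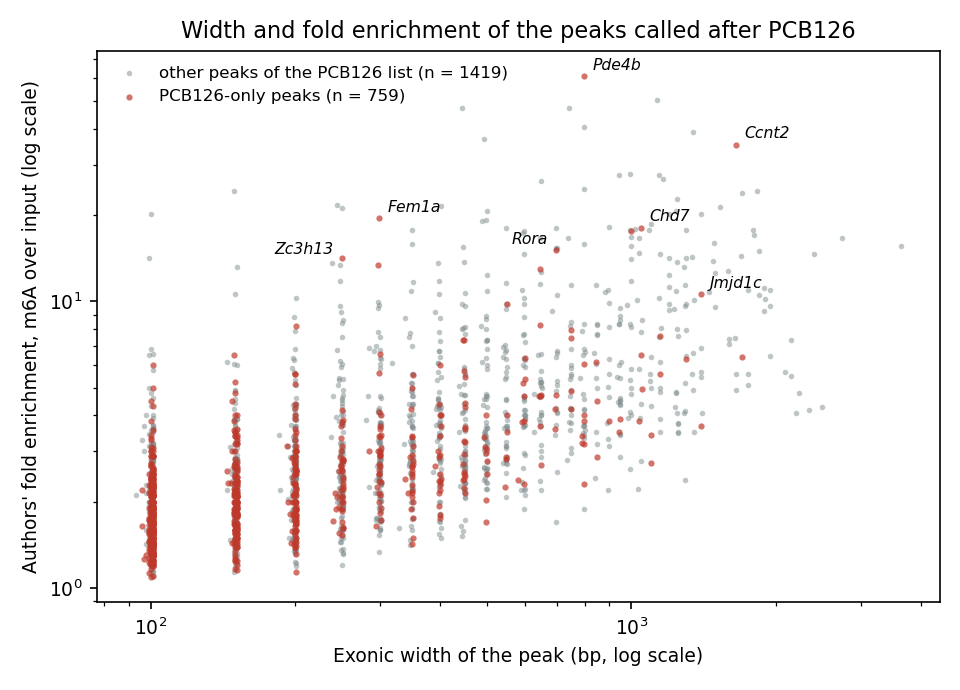
Each point is 1 peak of the PCB126 list against input, with its exonic width in bp on the horizontal axis and the authors' fold enrichment over input on the vertical axis, both on log scales. Red points are the 759 PCB126-only peaks and grey points the other 1419. Most red points lie below a fold of 5, while Pde4b (61.2), Ccnt2 (35.2) and Fem1a (19.5) stand far above the red median of 2.03.

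By locus, the peaks fell into 2 kinds. They lay at 343 of the 688 loci that had any PCB126 peak (49.9%). At 157 of these loci (22.8% of the 688) no other treatment had a peak against input anywhere in the locus, and these loci held 455 of the peaks (59.9%). The other 186 loci held 304 peaks that added a site to a transcript already listed in another treatment, which was the combination at 179 of the 186, the control at 56 and Aroclor1260 at 48. Peaks at the 157 loci had a median fold of 2.31 and a median width of 198 bp. The added sites had medians of 1.80 and 101 bp. The share of loci with a PCB126-only peak was 29.9% where the locus had 1 PCB126 peak, 43.5% where it had 2 to 3, and 74.1% where it had 4 or more. A locus with more peaks has more chances to hold such a peak, so a rise is built into this count.

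The highest fold of all belonged to Pde4b (ENSMUSG00000028525), the phosphodiesterase 4B gene, whose product degrades cyclic AMP. Its 798 bp peak at chr4:102605018-102605815 on the plus strand had a fold of 61.2 over input and overlapped a peak of 47.6 over IgG. A second Pde4b peak had a fold of 2.37. The PCB126 list held 2 Pde4b peaks with each reference, and the 3 other treatments held none with either.

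Ccnt2 (ENSMUSG00000026349) encodes cyclin T2, a partner of CDK9 in the elongation factor P-TEFb. Its single peak, chr1:127802214-127803863 on the plus strand and 1650 bp wide, had a fold of 35.2 over input and 24.8 over IgG. Fem1a (ENSMUSG00000043683) encodes a substrate receptor of a cullin ubiquitin ligase. It had 6 PCB126-only peaks with folds from 2.14 to 19.5, the highest at chr17:56259330-56259628. No list of another treatment held a peak of Ccnt2 or Fem1a with either reference.

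A further 6 loci were among the 10 with the highest folds of those marked after PCB126 against input and against IgG, with no peak of any kind in the other treatments. Rb1cc1, which encodes the autophagy initiation protein FIP200, had 4 PCB126-only peaks with folds of 3.43, 3.5, 3.67 and 9.80. Naa30, the catalytic subunit of an N-terminal acetyltransferase, had 1 peak of 7.46, and Ankle2, a nuclear envelope protein, had 3 with a highest fold of 7.33. Kmt5b, a histone H4 lysine methyltransferase, had 4 with a highest fold of 6.07. Nol9, a kinase of ribosomal RNA processing, had 2 with a highest fold of 5.62. Socs4, a suppressor of cytokine signalling, had 4 with folds of 2.14, 2.50, 3.17 and 5.57. In all, 57 loci met this description, with 151 PCB126-only peaks. The median over these loci of the highest fold was 3.5 and the lowest was 1.35, and 21 of the 57 had a single PCB126-only peak.

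Other high peaks had counterparts elsewhere once IgG was the reference. Chd7, a chromatin remodeller, had 9 PCB126-only peaks with a highest fold of 18.1 at chr4:8865761-8866810, and no other treatment had a Chd7 peak against input. Against IgG, however, Chd7 had 9 peaks in control, 8 with Aroclor1260, 11 with PCB126 and 11 with the combination. Plekhg3 (highest fold 17.6) likewise had 4, 5, 4 and 5 peaks against IgG. Zc3h13 (14.2) had 7, 6, 7 and 9. Jmjd1c (10.6), which encodes a protein of the histone demethylase family, had 10 IgG peaks in control, none after Aroclor1260, and 8 each after PCB126 and the combination. For these 4 loci the input and IgG lists therefore gave different answers about the control liver.

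Terf2ip, Arhgef3 and Lgr4 had IgG peaks after PCB126 and after the combination only. Terf2ip encodes the telomere protein RAP1, and its peak had a fold of 13.0 over input. The highest Arhgef3 peak had a fold of 8.29 over input and 34.4 over IgG. After the combination, the highest fold over IgG was 45.6 at Arhgef3. It was 21.6 at Terf2ip (13.8 after PCB126) and 5.4 at Lgr4 (14.2 after PCB126). Lgr4, the R-spondin receptor of the Wnt pathway, had 2 PCB126-only peaks, with folds of 2.25 and 7.57.

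Rora stood apart in the opposite way. It had 4 PCB126-only peaks, the highest with a fold of 15.1 at chr9:69375480-69379366, and no peak against IgG in any treatment, PCB126 included. In total, 16 loci were listed after PCB126 against input and in none of the other 7 lists, among them Galnt2 (highest fold 6.5), the glutamate transporter gene Slc1a2 (6.48) and the zinc finger gene Zfp568 (4.78). The long non-coding RNA Malat1 had 4 PCB126-only peaks on the minus strand with a highest fold of 8.20. None of the 4 overlapped a PCB126 IgG peak, although Malat1 had IgG peaks elsewhere after PCB126 (3), in control (2) and after the combination (2).

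**Figure D2:**
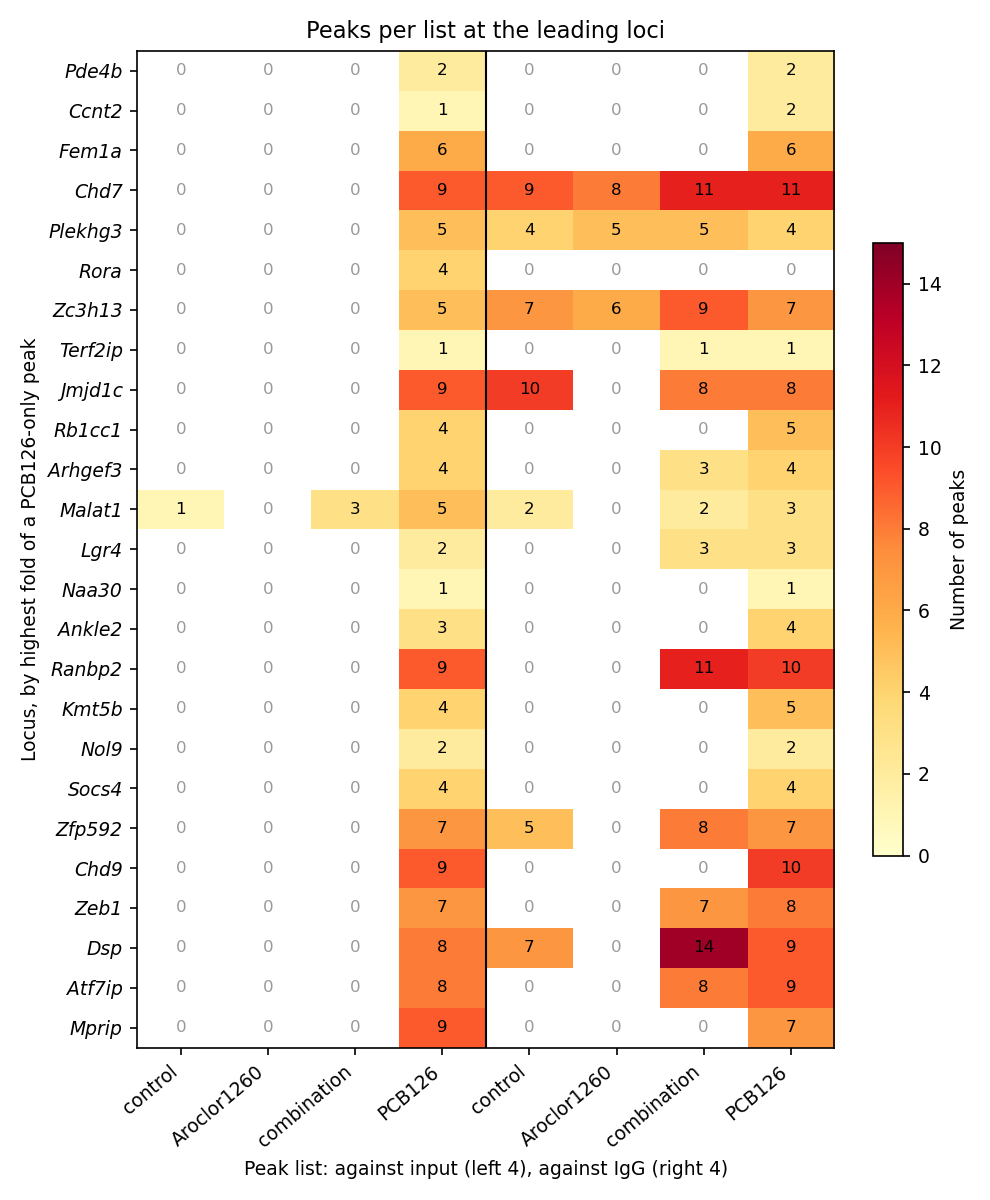
Each row is 1 of the named loci with the highest folds, the most PCB126-only peaks, or peaks in no other treatment, and each column 1 of the 8 lists, with the number of peaks printed and coloured from 0 to 15. The 4 columns left of the line were called against input and the 4 right of it against IgG. Pde4b, Ccnt2, Fem1a and Rb1cc1 show peaks in the PCB126 columns only, whereas Chd7, Plekhg3 and Zc3h13 show IgG peaks in every treatment.

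At some loci many PCB126-only peaks followed one another along the transcript. Chd9, a second remodeller of the Chd7 family, and Mprip, a myosin phosphatase partner, had 9 each, with highest folds of 4.88 and 2.67. Chd9 and Mprip were in no IgG list of another treatment. Ranbp2, a nuclear pore protein, had 9 with a highest fold of 6.4 and also had 11 IgG peaks after the combination. Dsp (desmoplakin) and Atf7ip had 8 each, and Zfp592 and Zeb1 had 7 each. These 4 also had IgG peaks in other treatments. Dsp had 7 in control and 14 after the combination, and Zfp592 had 5 and 8. Atf7ip had 8 and Zeb1 had 7 after the combination. Peaks of 1 transcript share its RNA and are not independent sites. Of the 157 loci, 31 had at least 5 PCB126-only peaks and 59 had 1.

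The lists called against IgG were not used to choose the peaks, although they rest on the same m6A libraries and are no replicate. Of the 759 peaks, 581 (76.5%, interval 73.4 to 79.4) overlapped a PCB126 peak against IgG, where 87.9% of all PCB126 peaks did. A peak of the combination against IgG was overlapped by 333 (43.9%, against 73.2% of all PCB126 peaks), of the control by 155 (20.4%, against 50.9%), and of Aroclor1260 by 117 (15.4%, against 44.1%). Altogether 409 (53.9%, interval 50.3 to 57.4) overlapped an IgG peak of at least 1 other treatment, against 80.8% of all PCB126 peaks. With a reciprocal overlap of 50% in place of 1 bp, the rule itself chose 1125 PCB126-only peaks. Of these, 41.2% had an IgG peak of another treatment by that overlap. Whether the share passed 50% thus depended on the overlap required, which also changed the set of peaks.

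When both references were required, 230 peaks (30.3%) at 127 loci had a PCB126 IgG peak and no IgG peak of another treatment. Another 120 (15.8%) were in none of the other 7 lists. The 178 peaks without a PCB126 IgG peak had a median fold of 1.79 and a median width of 101 bp, and the 581 with one had medians of 2.15 and 151 bp. Where a peak had both values, the fold over IgG was that of the highest overlapping IgG peak, which can raise it. It had a median of 3.8 (quartiles 2.7 to 5.33) and exceeded the fold over input in 531 of 581. Across these 581 peaks the folds had a Spearman correlation of 0.559, a description only, since they share the m6A libraries.

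**Figure D3:**
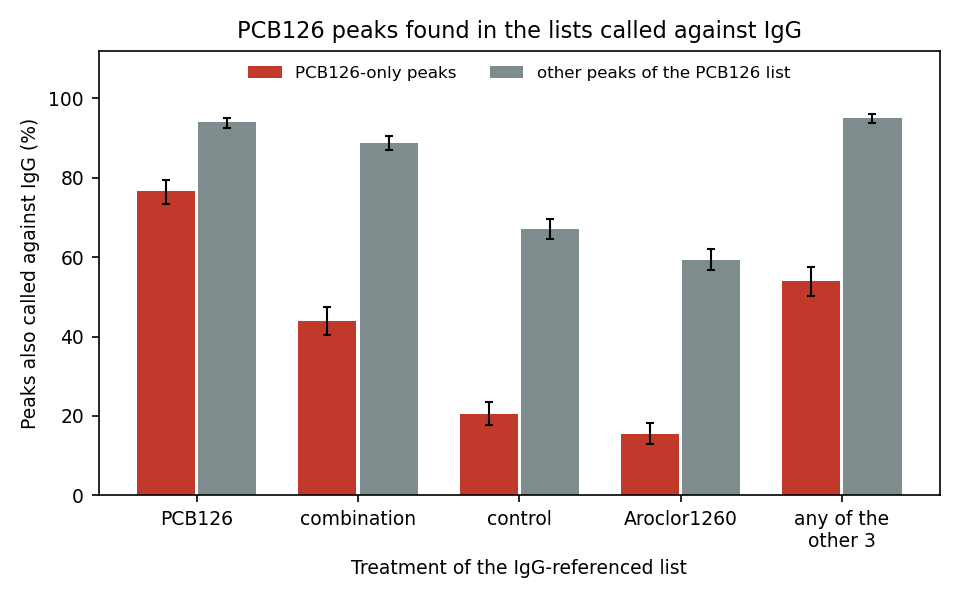
Bars give the percentage of peaks that overlapped a peak called against IgG in each treatment, or in any of the 3 treatments other than PCB126, for the 759 PCB126-only peaks (red) and the other 1419 peaks of the PCB126 list (grey). Error bars are Wilson 95% intervals for counting error. The red bars are 76.5% for PCB126, 43.9% for the combination, 20.4% for control and 15.4% for Aroclor1260, each below its grey bar.

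The m6A machinery itself was among the loci. Of 25 writers, erasers and readers, 3 had a PCB126 peak against input and 2 had a PCB126-only peak, where the share over all loci with a PCB126 peak was 49.9%. Zc3h13, a scaffold of the writer complex, had 5 PCB126-only peaks with a highest fold of 14.2, and its IgG peaks were present in every treatment. Ythdc1, the nuclear m6A reader, had 3 with a highest fold of 6.57, and all 3 overlapped a PCB126 IgG peak and no IgG peak of another treatment. Elsewhere in Ythdc1, the combination had 2 peaks against input and 3 against IgG, and the control had 2 against IgG.

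Of 59 chromatin modifier genes, 10 had a PCB126 peak against input, and all 10 had a PCB126-only peak: Arid1b, Asxl1, Asxl2, Chd7, Chd9, Kmt2e, Nsd1, Setd1b, Setd2 and Smarca2. They held 39 PCB126-only peaks with a median fold of 2.2, and at 4 of the 10 no other treatment had a peak against input. Of all 688 loci, 49.9% had a PCB126-only peak, and at 22.8% no other treatment had a peak against input. In the other lists against input, 6 of the 59 had a peak after the combination, 1 after Aroclor1260 and 0 in control. Those lists differed in length, with 2284, 506 and 620 peaks in that order, against 2178 for PCB126. These counts are thus no result about chromatin modifiers in control. Against IgG, however, 8 of the 10 loci had a peak in control, 5 after Aroclor1260 and 8 after the combination, and all 10 had one after PCB126. These loci had many peaks each, a median of 8.5 against 2 over the 688 loci, and all 10 had at least 4. Of the 232 loci with 4 or more PCB126 peaks, 74.1% had a PCB126-only peak. The part of peak number in the 10 of 10 was not tested. Setd2, the histone H3 lysine 36 methyltransferase, had PCB126-only peaks of 1.56, 1.88 and 2.71, and Setd1b, an H3 lysine 4 methyltransferase, of 2.14 and 2.80.

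Of 458 zinc finger genes named Zfp or Zbtb, 27 had a PCB126 peak and 17 had a PCB126-only peak, 10 of them at loci without a peak of another treatment against input. Over all 688 loci these shares were 49.9% and 22.8%, and the gene list counts that follow stand against the same shares. They held 54 PCB126-only peaks with a median fold of 2.09. Among ubiquitin ligases and deubiquitinases it was 5 of 8, led by Fem1a (19.5), Fbxo21 (5.37), Rnf125 (3.82) and Rnf43 (2.70), a ligase that removes Wnt receptors. Among elongation and Mediator genes it was 3 of 4, Ccnt2 (35.2), the super elongation complex gene Aff1 (4.00, 7 peaks) and the repressor Cic (1.82). Wnt and Hippo genes gave 4 of 7, the receptors Lgr4 (7.57) and Fzd7 (4.25, 5 peaks), and the inhibitors Apc (1.83) and Amotl2 (1.5). Rnf125, Rnf43, Cic, Apc and Amotl2 also had peaks against input in another treatment. Fbxo21 had peaks against IgG in control (4), after Aroclor1260 (3) and after the combination (6), and Aff1 after the combination (5).

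Transcription factors of hepatocytes gave 4 of 7. Tbx3, a T-box repressor, had 5 PCB126-only peaks with a highest fold of 4.67, while Zhx2 (2.25), Rreb1 (1.30) and Hnf4a (1.24), the factor that maintains hepatocyte identity, had low ones. Clock genes gave 2 of 3, Rora (15.1) and the output factor Dbp (1.41). Cyclic AMP genes gave 2 of 3, Pde4b (61.2) and the kinase anchor Pakap (2.25). In the glutathione, selenium and metal list, 2 of 3 had one. Secisbp2, which binds the selenocysteine insertion element, had 4 peaks with a highest fold of 2.60, and Mt1, a metallothionein, had 1 of 1.25. Zhx2, Rreb1, Hnf4a, Dbp and Pakap also had peaks against input in another treatment. Tbx3 had peaks against IgG after Aroclor1260 (4) and the combination (10), and Mt1 in control (2) and after the combination (1).

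Metabolic genes contributed few and low peaks. Bile acid and canalicular transport genes gave 2 of 2, the FGF co-receptor Klb (2.07) and the phospholipid exporter Abcb4 (1.37). Glucose genes gave 2 of 4: G6pc, the catalytic subunit of glucose-6-phosphatase (2.26, 3 peaks), and the Foxo1 locus (2.85), whose peaks lay on the strand opposite to Foxo1. Por, the electron donor of the cytochromes P450, had a fold of 1.39, Pparg, the adipogenic nuclear receptor, 1.27 and Apoa4, an apolipoprotein, 1.23. Each was the sole gene with a PCB126-only peak among the 4, 4 and 5 genes of its list that had a PCB126 peak. Every metabolic locus named here also had a peak against input in another treatment.

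Of 10 immediate early genes with a PCB126 peak, 2 had a PCB126-only peak, the AP-1 subunit gene Jun (3.29, 3 peaks) and Egr1 (1.88). Of 8 cytokine and death receptor genes, 2 had one, Fas (2.67) and the LIF receptor gene Lifr (2.03). The unfolded protein response list gave 2 of 5, Atf4 (1.35) and Herpud1 (1.26), and the TGF beta list 1 of 3, the ligand Bmp2 (3.55, 3 peaks). Elsewhere in Bmp2, a peak against input was also listed in control (18.6), after Aroclor1260 (15.7) and after the combination (32.2). The microRNA silencing list gave 2 of 2, the GW182 genes Tnrc6a (1.60) and Tnrc6c (1.58). The list of small GTPase regulators gave 1 of 2, Arhgap29 (2.12). Of the genes named from these lists, all except Tnrc6a also had a peak against input in another treatment. Tnrc6a had 1 peak against IgG after the combination.

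No PCB126-only peak was found in 4 lists. Plasma protein and coagulation genes had 10 loci with a PCB126 peak and growth factor receptor and MAPK genes had 4. Mitochondrially encoded genes also had 4. The 14 targets and partners of the aryl hydrocarbon receptor had no PCB126 peak against input at all, and Tiparp was the 1 gene among them found anywhere in the series. Of the 11 of these genes with a known strand, 5 lie on the minus strand, on which just 33 of the 759 peaks were called (4.35%, against 5.92% of the other PCB126 peaks). The other 6 of the 11 lie on the plus strand and had no PCB126 peak against input either. The part of strand was not tested. Only 688 loci had a PCB126 peak, where the RefSeq promoter table held 27025 genes. An empty or short list is no measure of m6A on its transcripts. Among the 25 writers, erasers and readers, 12 genes likewise lie on the minus strand, as do 25 of the 59 chromatin modifiers.

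Few markers of the liver's cell types bore a PCB126 peak, but few genes of any kind did. The PCB126 list held 688 loci, where the RefSeq promoter table held 27025 genes. The counts that follow are thus no result about the cell types. Of 10 Kupffer cell and macrophage markers, none had a PCB126 peak against input, and Cd5l alone had a peak in any list of the series. In bulk liver RNA, more cells of a type and more marked RNA per cell cannot be told apart. None of 9 stellate cell, 5 cholangiocyte, 7 lymphocyte and 4 neutrophil markers had one against input. Of 10 endothelial markers, Bmp2 and Eng had one, and Bmp2 alone held PCB126-only peaks. Of 10 hepatocyte markers, Apoa1 and Hnf4a had one, and 7 of the 10 had a peak in at least 1 of the 8 lists.

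The positions along the gene had close medians in both kinds of peak. From 0 at the 5′ end of the gene span, introns included, to 1 at the 3′ end, the median peak centre was 0.774 for the 577 PCB126-only peaks that could be placed and 0.782 for 1022 others. The last 20% of the span held 265 of them (45.9%, against 47.2%), and the first 20% held 71 (12.3%, against 10.2%).

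**Figure D4:**
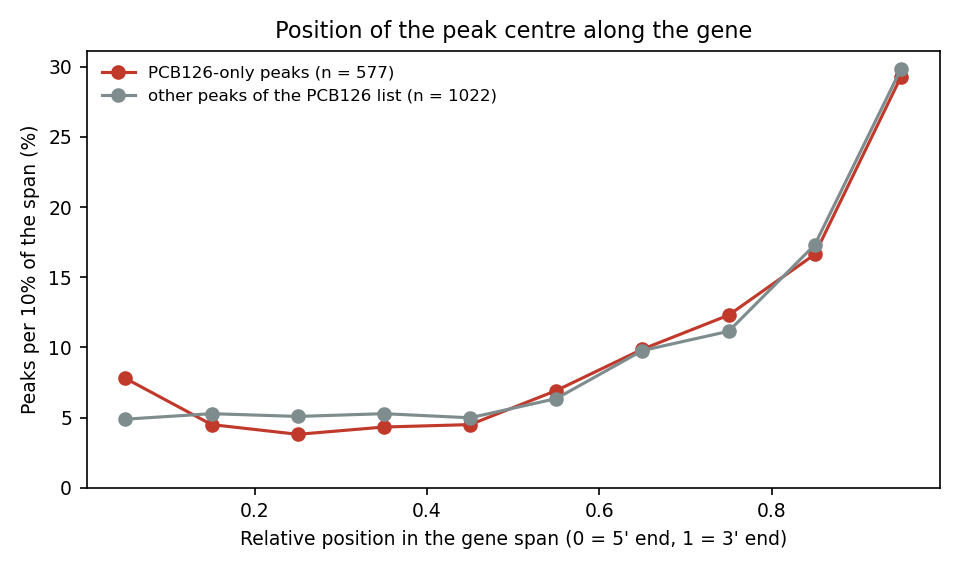
Points give the percentage of peak centres in each of 10 equal bins of the gene span, from the 5′ end (0) to the 3′ end (1), for 577 PCB126-only peaks (red) and 1022 other PCB126 peaks (grey). Both lines peak towards the 3′ end, with medians of 0.774 and 0.782.

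Many of the peaks lay near a peak of another treatment. For 288 of the 759 (37.9%) the nearest other peak was in the same locus, at a median distance of 298.5 bp (quartiles 99 to 1713). A distance of 100 bp or less was found for 75 peaks (9.88%). The nearest peak came from the combination for 602 of the 759 (79.3%). Just inside the rule were peaks of Rnpepl1, 32 bp from a peak of another treatment with a fold of 1.9, Pakap (47 bp, 2.2), Ddx54 (47 bp, 1.3), D17H6S53E (48 bp, 2.67) and 4632415L05Rik (48 bp, 2.14). Just outside it, with 1 shared base, were peaks of Ash1l (fold 2.86), Crk (2.8), C1galt1 (2.67), Zfp655 (2.3) and Zfhx3 (2.22). In total, 49 peaks outside the rule shared at most 50 bp with another list. With a distance of 1000 bp counted as shared, 563 peaks would have remained PCB126-only.

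**Figure D5:**
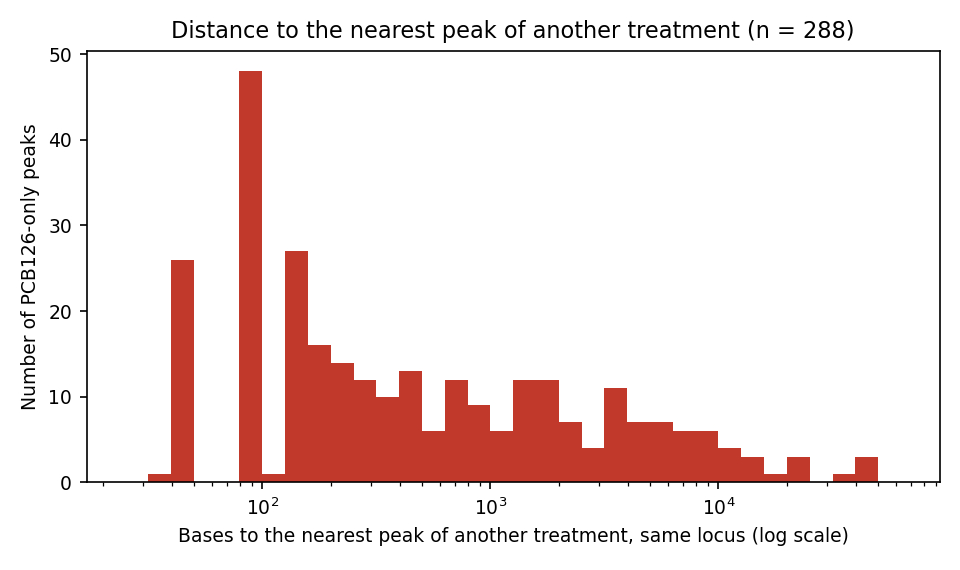
The histogram counts, for 288 PCB126-only peaks, the number of bases on a log scale to the nearest peak of another treatment in the same locus, both called against input. The distances run from 32 to 45350 bp, with a median of 298.5 bp.

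The 250 bases before the start of the genes were searched on both strands for GCGTG, the core of the aryl hydrocarbon receptor element. It was present for 140 of 257 loci with a PCB126-only peak and a RefSeq promoter window (54.5%, interval 48.4 to 60.5). Loci of the PCB126 list without such a peak held it in 111 of 236 (47.0%, interval 40.8 to 53.4), and all genes of the table in 8338 of 27025 (30.9%). Among the 157 loci with no peak of another treatment against input, it was 67 of 118 (56.8%), and among the 57 loci with PCB126 peaks against both references and no peak of another treatment it was 20 of 42 (47.6%). Loci with a PCB126-only peak had 1.35 promoter windows per gene, those without one 1.31, and all genes 1.22, and the part of window number in these shares was not tested. The intervals of the shares for loci with and without a PCB126-only peak overlapped, and no difference between them was tested. Of the 10 leading loci in no list of another treatment, 8 had a window and 5 held the word. One match for each is shown, on the plus strand, with the word or its reverse complement in capitals, because these loci head the list. A match is no evidence of receptor binding.
Pde4b: aggtaaactgCACGCagtgctacac
Ccnt2: gggtccctgcGCGTGcgcgtgggta
Naa30: ccacccccggCACGCggcctcccgg
Kmt5b: cataccccagGCGTGggtgcaagcc
Socs4: gtatgtcacaCACGCccgggagatg

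In the order shown, the matches lay at chr4:102421461-102421485, chr1:127774070-127774094, chr14:49172053-49172077, chr19:3767342-3767366 and chr14:47276718-47276742 of GRCm38.p6. Ccnt2 had 2 further matches and Naa30 had 1.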

How the data were processed

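The peaks, the loci and the gene lists were chosen with earlier results of these data known. The submitters' processing notes name BWA 0.7.17, Trimmomatic, FastQC 0.10.1, bcl2fastq 2.20.0.422 and the mouse build mm10. The lists are titled as MeTPeak output whose version, settings and annotation were not given in the sources used here. Per the file headers, the authors gave each peak a p-value and the log10 of its false discovery rate. Per the file headers, the authors also gave a fold enrichment, taken here as a ratio of m6A over input or IgG on a linear scale. Its scaling between libraries is unstated. Peaks were ranked by these values within a list only. Where folds of different lists or references stand side by side, they are on no known common scale and were not tested. The authors deposited 1 list per treatment and reference, so the 5 libraries of a treatment were pooled or called together.

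Starts were converted from 0-based to 1-based. Overlap meant 1 bp or more of the spans on 1 strand, and was checked on simulated intervals. Each of the 1512 Ensembl identifiers was named by position, whatever the strand, when a RefSeq gene (GRCm38.p6) covered at least 80% of its exonic peak bases. Where several did, the only protein-coding one was taken. This named 1398 and left 114, giving 1419 loci. Analyses used Python 3.11.15, pandas 2.3.3, numpy 2.4.6 and scipy 1.17.1.

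Genes were named as the 15 loci with the highest PCB126-only fold, the 10 with the most such peaks, the 10 highest in no list of another treatment, and up to 4 of each gene list. Some of these are not reported here. The 5 peaks closest to the rule on each side were named too. Alternatives varied the overlap, strand, fold, false discovery rate, list length and reference. No genome was used, so the leading peaks' own sequences are not shown.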

Additional observations from a re-analysis of the deposited data

How the results depend on the processing

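No paired analysis was possible because each list pools a whole treatment, and for the same reason no replicate could be left out. Against 759 PCB126-only peaks of 2178, lists of equal length gave 216 of 506, IgG in place of input gave 1386 of 4129, and requiring absence from the other treatments' IgG lists too gave 350. The 157 PCB126-only loci became 67 with equal lists and 245 with IgG. They numbered 147 to 167 under the overlap, strand, fold, false discovery rate and naming alternatives, though their definition leaves little room for the overlap to change them. The share also called against IgG after PCB126 (76.5%) was 50.8% with 50% reciprocal overlap, 86.1% with a 1000 bp distance counted as shared, 81.9% at a fold of at least 2 and 84.3% with equal lists. Each of these settings chose its own PCB126-only peaks, in that order 1125, 563, 518 and 216. With IgG as the reference, 19.5% of the 1386 PCB126-only peaks were also called against input. The share in an IgG list of another treatment (53.9%) was, in the same order, 41.2% (below rather than above 50%), 59.5%, 58.9% and 65.3%, and with IgG as the reference 7.14% were in an input list of another treatment. The median fold (2.03) was 2.14, 2.15, 2.5 and 2.21, and 2.715 over IgG. Exonic blocks gave the same values as spans for all 5 results. Unknown depth and the absence of values per animal limit every count.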

Other observations

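The 10 highest PCB126-only folds all belonged to loci with no peak of another treatment against input, and 9 of these peaks overlapped a PCB126 peak against IgG. Of the 10, 5 overlapped an IgG peak of another treatment. The remaining high peak, at Rora, was in no IgG list.

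Minus-strand PCB126-only peaks lay at 27 loci, and 4 loci had such peaks on both strands. Of the 33 minus-strand peaks, 12 lay at genes that RefSeq places on the plus strand and 12 at genes on the minus strand. The gene strand was not given for the other 9. On the plus strand, 552 peaks lay at plus-strand genes, 1 at a minus-strand gene, and 173 at genes whose strand was not given.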
